A study of Mus musculus with 7 samples.

Results

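The mitochondrial genome of the mouse was followed through its 37 annotated genes in RNA-seq of whole kidney from 7 male Slc7a9-/- mice aged 6 months. Its genes were taken as every gene, of any biotype, whose GENCODE M21 symbol begins with mt-, and these are exactly the genes annotated on chromosome M of the GRCm38 build. They comprise 13 protein-coding genes, 2 ribosomal RNA genes and 22 transfer RNA genes, and all 37 are among the 45706 genes of the deposited tables. Slc7a9 encodes the light subunit of the renal transporter that reclaims cystine, and its loss leaves cystine in the urine, as in human cystinuria. The untreated group held 3 mice that received no agent, and the ergothioneine group held 4 mice that received L-ergothioneine, a sulfur-containing derivative of histidine found in mushrooms, with their drinking water at a dose of 16 mg/kg/day. Both groups carried the Slc7a9 deletion, and no wild-type kidney entered the comparison. The labels do not give the length of treatment, and each library came from frozen tissue of a whole organ, so that all its cell types were read together.

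Mitochondrial DNA is a compact circle that encodes core subunits of respiratory complexes I, III and IV and of the ATP synthase (complex V), together with the rRNAs and tRNAs used to translate them inside the organelle. Each strand is transcribed as a long precursor by the polymerase POLRMT with the factors TFAM and TFB2M. The tRNAs that punctuate the precursor are then cut out by RNase P and ELAC2, which releases the mRNAs and rRNAs between them. Proximal and distal tubule cells are rich in mitochondria because their salt and solute transport is driven by ATP.

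The libraries held 14843899 to 19791575 counts. Slc7a9 itself had 95 to 166 counts per library (5.55 to 9.47 CPM, counts scaled to library size), at similar levels in both groups, and without a wild-type library these counts do not check the genotype. Markers fitting kidney tissue were abundant, with a summed level of the 9 proximal tubule markers of 17952 to 21399.97 CPM in untreated and 17809.6 to 19569 CPM in treated kidneys. Untreated kidneys 1 and 2 stood apart from the other 5 libraries in their content of short non-coding nuclear RNAs (annotated length under 400 nt), which took 0.427% and 0.570% of their counts against 1.83% to 2.79% in the rest. The library names end in numbers, called library index numbers here, and the labels do not say what they mark. They were 49, 50 and 44 for untreated 1, untreated 2 and ergothioneine 1. The other 4 libraries had 14 to 23, so that the numbers fall into 2 ranges.

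Of the 37 mitochondrial genes, 15 had counts and all 15 passed the filter on low counts, while the 22 tRNA genes had 0 counts in every library. A single member, mt-Nd6, was called. This complex I subunit, the only protein encoded on the light-strand template, was 2.45-fold lower in ergothioneine-treated kidneys. No member was called higher. Across the table, edgeR's quasi-likelihood test called 7.16% of the 15399 tested genes at an adjusted p under 0.05 (3.58% as higher and 3.57% as lower), so that 1 call among 15 members is close to the background share. The median log2 fold change (ergothioneine over untreated) of the 15 members was 0.02, with 8 of 15 above 0, beside a median of -0.0031 over all tested genes. From the level of a single member alone, fewer mitochondria, fewer cells of a type and less RNA per cell cannot be told apart in these bulk samples.

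**Figure D1:**
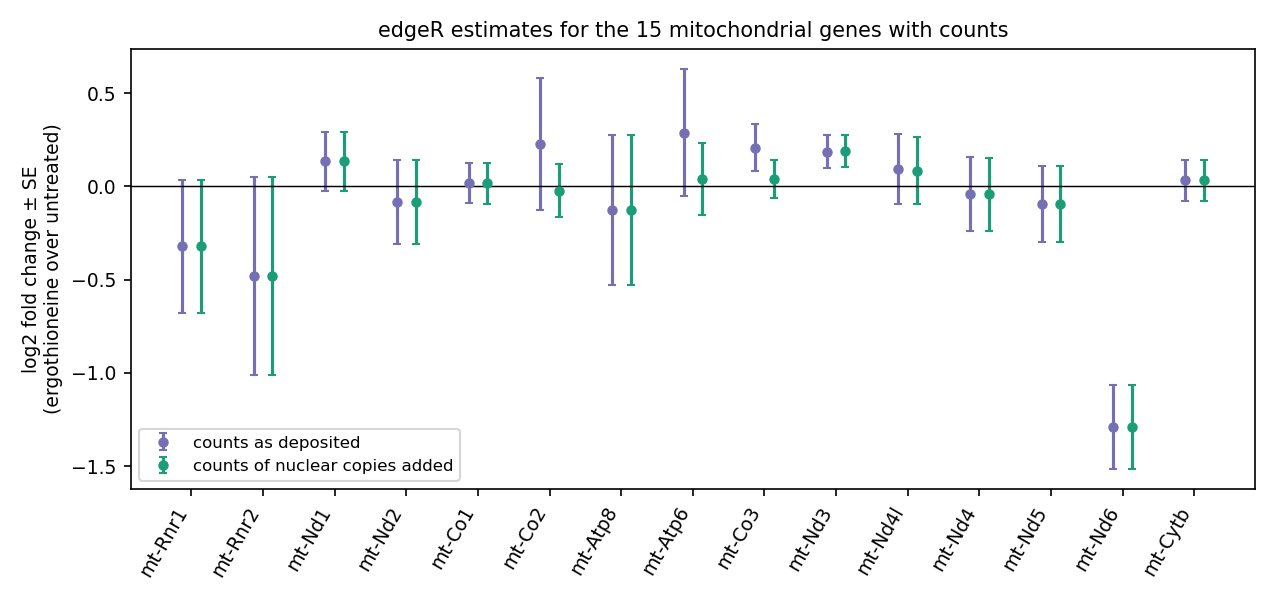
Log2 fold change of ergothioneine over untreated (vertical axis, points with the standard error of the edgeR fit) for the 15 mitochondrial genes with counts, in their order along chromosome M, from the counts as deposited and after adding the counts of nuclear copies. mt-Nd6 lies at -1.29 in both fits, and the other 14 genes lie between -0.48 and 0.29.

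mt-Nd6 lies at chrM:13552-14070 on the minus strand, in the reverse direction to the other 12 coding genes. Its counts were 4412, 4387 and 2919 in untreated kidneys 1 to 3 and 1324, 1829, 1943 and 2152 in treated kidneys 1 to 4. As CPM scaled by the trimmed mean of M-values (TMM), it read 250.0, 294 and 187 in untreated kidneys and 75.2, 92.5, 114 and 117 in treated kidneys. Every treated kidney was below every untreated one, with untreated 2 the highest and ergothioneine 1 the lowest. The group means were 244 ± 53.7 CPM (SD, n = 3) and 99.6 ± 19.6 CPM (SD, n = 4), a log2 fold change of -1.29 ± 0.22 (SE, edgeR quasi-likelihood test, adjusted p = 0.0319). Groups that do not overlap occurred in 18.6% of tested genes and in no other member.

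The groups also separated for mt-Nd6 relative to the other strand of the same molecule. Per 1000 counts of the 12 plus-strand coding genes, mt-Nd6 had 3.15, 3.27 and 2.92 counts in untreated kidneys and 0.798, 1.27, 1.37 and 1.59 in treated kidneys. This ratio was 3.11 ± 0.181 (SD, n = 3) in untreated and 1.26 ± 0.333 (SD, n = 4) in treated kidneys. Relative to mt-Nd5, the complex I gene that faces it on the opposite strand, mt-Nd6 had 53.2, 60.8 and 61.9 counts per 1000 in untreated and 15.5, 26.9, 33.5 and 29.3 in treated kidneys. mt-Nd5 itself overlapped between the groups, at 4697, 4834 and 3024 CPM against 4851, 3439, 3386 and 4005 CPM (log2 fold change -0.09 ± 0.21, edgeR adjusted p = 0.865). The treated kidney with the lowest mt-Nd6, ergothioneine 1, had the highest mt-Nd5 of all 7.

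**Figure D2:**
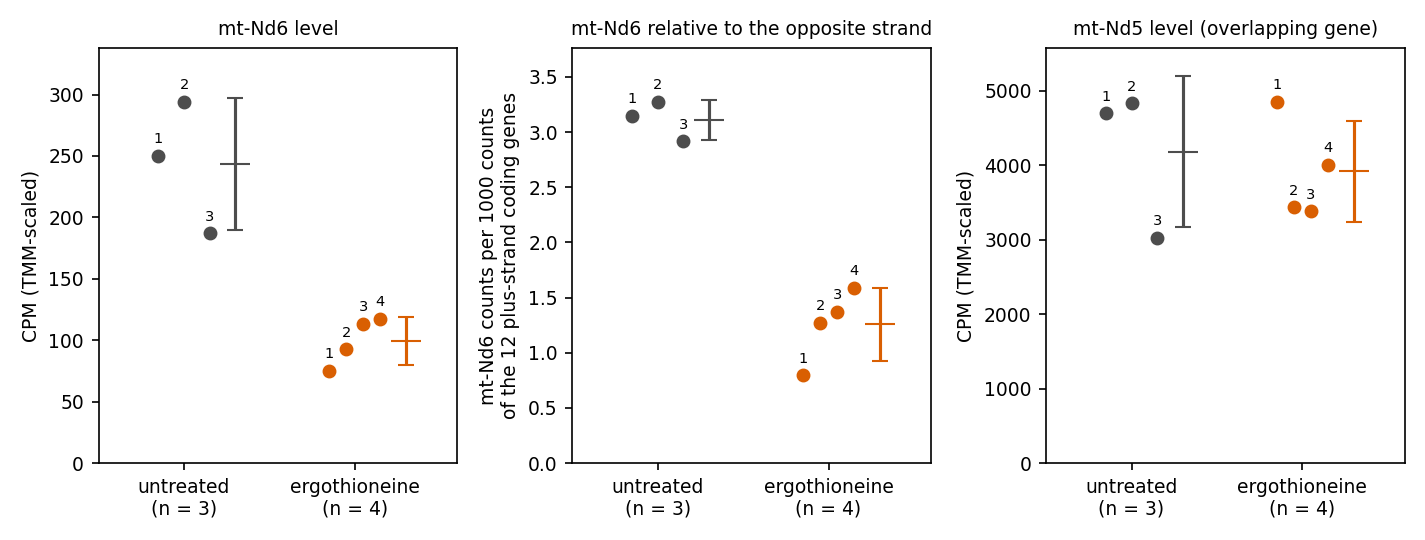
mt-Nd6 in CPM, mt-Nd6 counts per 1000 counts of the 12 plus-strand coding genes, and mt-Nd5 in CPM (vertical axes from 0) in each numbered kidney, with the group mean and SD as bars. The untreated mt-Nd6 points (187 to 294 CPM) lie above all treated points (75.2 to 117 CPM), the ratio separates the groups with a wider gap (2.92 to 3.27 against 0.798 to 1.59), and mt-Nd5 overlaps.

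The end of the transcript of mt-Nd6 and the end of mt-Nd5 are shown because these neighbours overlap on opposite strands. The capitals mark the 14 bases at chrM:13552-13565 that both genes cover, each read 5′ to 3′ on its own strand. The sequences are from the GENCODE M21 transcripts on GRCm38 (chrM:13552-13791 minus and chrM:13506-13565 plus).
mt-Nd6, last 240 bases: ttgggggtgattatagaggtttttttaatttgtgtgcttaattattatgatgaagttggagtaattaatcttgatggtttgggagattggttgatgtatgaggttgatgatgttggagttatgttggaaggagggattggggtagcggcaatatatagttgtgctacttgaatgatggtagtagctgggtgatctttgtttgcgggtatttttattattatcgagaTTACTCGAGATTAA
mt-Nd5, last 60 bases: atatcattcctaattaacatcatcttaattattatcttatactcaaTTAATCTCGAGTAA
The composition of the transcripts also shows the strand. mt-Nd6 has 28.1% G, 5.97% C and 43.7% T, whereas the plus-strand coding genes have 5.88% (mt-Atp8) to 16.1% (mt-Co1) G and 22.1% (mt-Nd3) to 29.97% (mt-Nd4l) C. The library kit named in the labels keeps strand, but whether the authors' counting used it is not given in the sources used here; without it, reads of mt-Nd6 and of any RNA from the other strand over the same bases cannot be told apart.

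The direction for mt-Nd6 held in all 21 alternative fits, with log2 fold changes of -1.70 to -0.91, and it was called in 13 of them. The fits reuse the same libraries, in which the groups do not overlap, so they add no separate support for the direction. The call was lost when untreated 1 (adjusted p = 0.101), untreated 2 (0.0810), ergothioneine 2 (0.1003), ergothioneine 3 (0.0580) or ergothioneine 4 (0.0591) was left out of the edgeR fit, and with the library index range as a block (-1.29, adjusted p = 0.108), while DESeq2 gave an adjusted p of 1.08e-06. Within the higher range of index numbers, mt-Nd6 averaged 272 CPM in 2 untreated kidneys and 75.2 CPM in 1 treated kidney. In the lower range it was 187 CPM in 1 untreated kidney and averaged 108 CPM in 3 treated kidneys, a 1.74-fold difference against 3.62-fold in the higher range. Without untreated kidneys 1 and 2, the pair low in short non-coding RNA, the log2 fold change was -0.91 (edgeR adjusted p = 0.270), with the lone untreated kidney assumed to vary like the treated ones.

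Markers of some other cell types also differed in these libraries. The summed level of 10 brown and white adipocyte markers was 57.4 to 69.9 CPM in untreated and 14.82 to 23.2 CPM in treated kidneys, with 7 of the 8 tested markers called lower, Ucp1 at 0 in ergothioneine 1 and Cidea at 0 in ergothioneine 1 and 3. Distal tubule and collecting duct markers summed to 1502 to 1616 CPM and 1755 to 2029 CPM, with 3 of 10 called higher. The called counts stand beside 3.58% higher and 3.57% lower among all tested genes. Of the proximal tubule markers 1 of 9 was called lower, of the thick ascending limb markers 2 of 6 higher, of the podocyte markers 1 of 5 higher, of the endothelial markers 0 of 6 in either direction, of the 4 tested of 6 leukocyte markers 1 lower, and of the 3 tested of 6 erythroid markers 1 higher. That erythroid marker is Slc4a1, which is also on the distal tubule and collecting duct list and counted among its 3. The part of these cell types in the level of mt-Nd6 was not tested.

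The 12 coding genes of the plus strand, which are transcribed from the heavy-strand template, included no called gene. Their log2 fold changes ran from -0.13 for mt-Atp8 to 0.29 for mt-Atp6. They tended to be high or low together from kidney to kidney, some pairs more closely than others. Untreated 3 was the lowest library for 11 of the 12, and ergothioneine 1 the highest for 9, with untreated 2 the highest for the other 3. The Pearson correlation of the log2 levels had a median of 0.838 (0.419 to 0.988) over the 66 pairs of these genes. It is a description over 7 libraries, and the genes within each library share its depth and scaling. Among untreated kidneys mt-Nd6 had the same order as all 12, with untreated 2 highest and untreated 3 lowest. Among treated kidneys ergothioneine 1 was the highest for all 12 and the lowest for mt-Nd6.

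**Figure D3:**
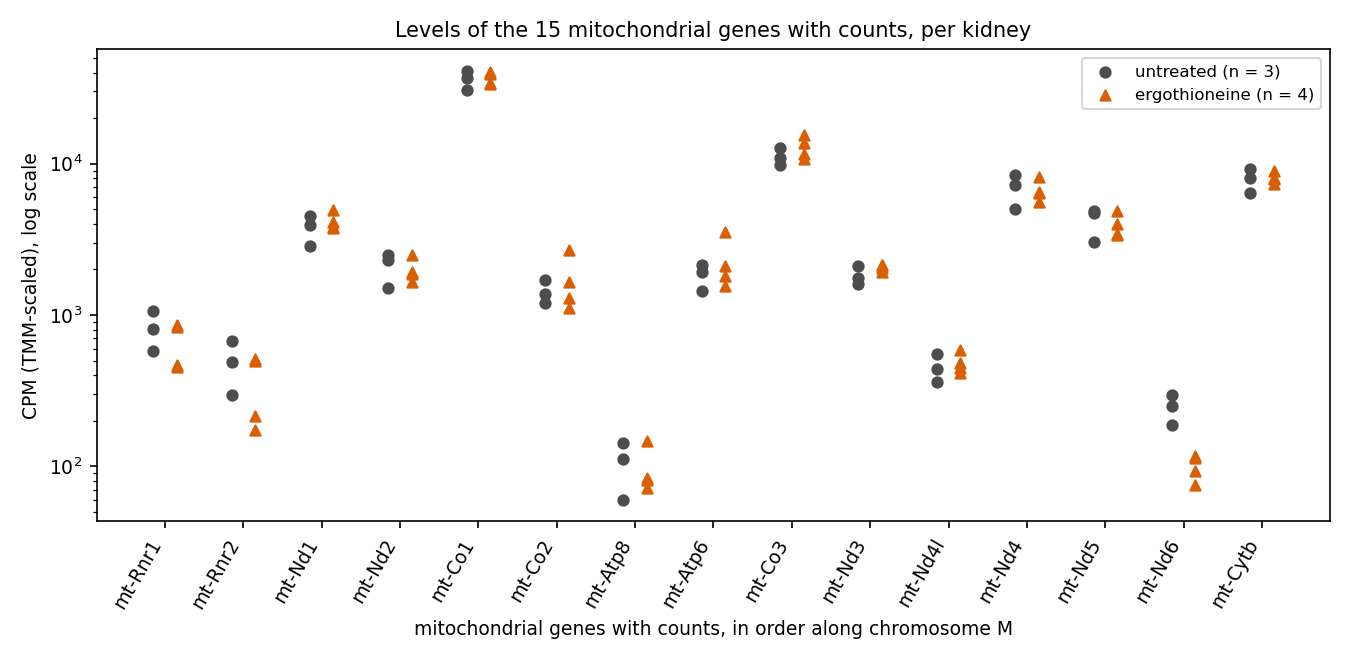
Level of each of the 15 mitochondrial genes with counts in CPM (vertical axis, log scale), along chromosome M, with 1 point per kidney for 3 untreated and 4 ergothioneine-treated mice. The groups overlap for every gene except mt-Nd6, and levels span from about the 60.3 CPM of mt-Atp8 in untreated 3 to the 41141 CPM of mt-Co1 in untreated 2.

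The spread between kidneys of 1 group was wide for these abundant transcripts. The median within-group SD of the 15 members was 0.304 on the log2 scale, beside 0.0776 for the 1945 genes with a mean of at least 100 CPM and 0.137 for all tested genes. It was lowest for mt-Nd3 (0.138) and mt-Co1 (0.165) and highest for mt-Rnr2 (0.732) and mt-Atp8 (0.537). All mitochondrial genes together took 8.03%, 9.24% and 6.55% of the counts in untreated kidneys and 9.49%, 7.35%, 8.27% and 7.64% in treated kidneys. The means were 7.94% ± 1.35 (SD, n = 3) and 8.19% ± 0.950 (SD, n = 4), and the groups overlapped.

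Complex I takes 7 subunits from mitochondrial DNA, and 6 of them are on the plus strand. mt-Nd1, which contributes to the quinone-binding site, read 3962, 4511 and 2846 CPM in untreated and 4906, 3781, 4091 and 3799 CPM in treated kidneys (log2 fold change 0.14 ± 0.16, edgeR adjusted p = 0.707). Untreated 3 was lowest and the other 6 overlapped. mt-Nd2, mt-Nd4 and mt-Nd5 encode the antiporter-like subunits of the proton-pumping arm. mt-Nd2 ranged from 1497 to 2508 CPM and mt-Nd4 from 4998 to 8359 CPM, with log2 fold changes of -0.08 ± 0.23 and -0.04 ± 0.20.

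The small complex I subunits were not called either. mt-Nd3 had the narrowest treated spread of the members, at 1744, 2099 and 1599.8 CPM in untreated and 2142, 1932, 2139 and 2049 CPM in treated kidneys. Its log2 fold change was 0.19 ± 0.09 (edgeR adjusted p = 0.228), and of the 21 alternatives it was called only without untreated 2, the highest untreated kidney (0.30, edgeR adjusted p = 0.0272, with 2.77% of tested genes called higher). mt-Nd4l ranged from 361 to 588 CPM (log2 fold change 0.09 ± 0.19). Together, the complex I genes made up 22.5% to 25.9% of mitochondrial coding counts as deposited in untreated and 22.4% to 25.2% in treated kidneys. These shares leave out reads assigned to the nuclear copies described below. With copies added, the mean share of mt-Nd4 was 7.58% in untreated kidneys, from 8.69% as deposited, and 7.30% in treated kidneys, from 8.19%.

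mt-Cytb, the cytochrome b subunit and sole mitochondrially encoded part of complex III, lay at 8051, 9173 and 6375 CPM against 8919, 7369, 7997 and 7899 CPM (log2 fold change 0.03 ± 0.11, edgeR adjusted p = 0.915). Complex IV, cytochrome c oxidase, took the largest share of the coding counts as deposited, 61.5% to 65.2% in untreated and 61.5% to 65.4% in treated kidneys. Reads assigned to nuclear copies are not in these shares. With copies added, the mean share in untreated kidneys was 41.5% for mt-Co1, from 46.6% as deposited. It was 4.56% for mt-Co2, from 1.84%, and 17.2% for mt-Co3, from 14.4%. Its catalytic subunit mt-Co1 had the highest CPM of the members, a measure not scaled to gene length. It read 36657, 41141 and 30900.3 CPM against 40186, 34238, 38830 and 33693 CPM. The groups overlapped, with a log2 fold change of 0.02 ± 0.11 (edgeR adjusted p = 0.948). The remaining members, mt-Co2, mt-Co3 and mt-Atp6, cannot be read from their own counts alone.

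A row of 7 pseudogenes on chromosome 1 carry copies of mitochondrial genes in the order in which they stand on chromosome M. They lie on the minus strand within chr1:24611535-24616197 (GRCm38) and resemble mt-Nd4 (Gm28439), mt-Nd4l (Gm10222), mt-Nd3 (Gm28438), mt-Co3 (Gm28437), mt-Atp6 (Gm10925), mt-Co2 (Gm28661) and mt-Co1 (Gm29216). At least 97.2% of the 31-base words of each copy occur in mitochondrial transcripts, and 5 of the 7 copies are identical throughout to a stretch of chromosome M. The first 60 bases of mt-Co2 (chrM:7013-7072 plus) and of Gm28661 (chr1:24615506-24615565 minus) are shown for the pair in which a copy took its highest share of any library (72.0%), and no base differs between them (GENCODE M21 transcripts, GRCm38).
mt-Co2, first 60 bases: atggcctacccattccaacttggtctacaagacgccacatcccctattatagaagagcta
Gm28661, first 60 bases: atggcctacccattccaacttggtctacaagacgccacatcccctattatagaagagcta
The expected counts of these 7 members are not whole numbers in at least 6 of the 7 libraries, whereas those of the other 8 members with counts are whole in all 7 (tolerance 0.005).

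The share given to the copies differed between genes and between kidneys. Of the summed counts of mt-Co2 and Gm28661, the copy held 66.4%, 66.6% and 61.4% in untreated kidneys and 39.7%, 65.8%, 59.7% and 72.0% in treated kidneys. For mt-Atp6 and Gm10925 the copy held 51.2% in ergothioneine 1 and 60.7% to 69.6% in the other 6. For mt-Co3 and Gm28437 it held 6.65% in ergothioneine 1 and 15.4% to 30.1% in the others. Ergothioneine 1 thus had the lowest share assigned to all 3 copies. For mt-Co1, mt-Nd3 and mt-Nd4 the copies held at most 2.79%, and for mt-Nd4l 0% to 6.82%.

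**Figure D4:**
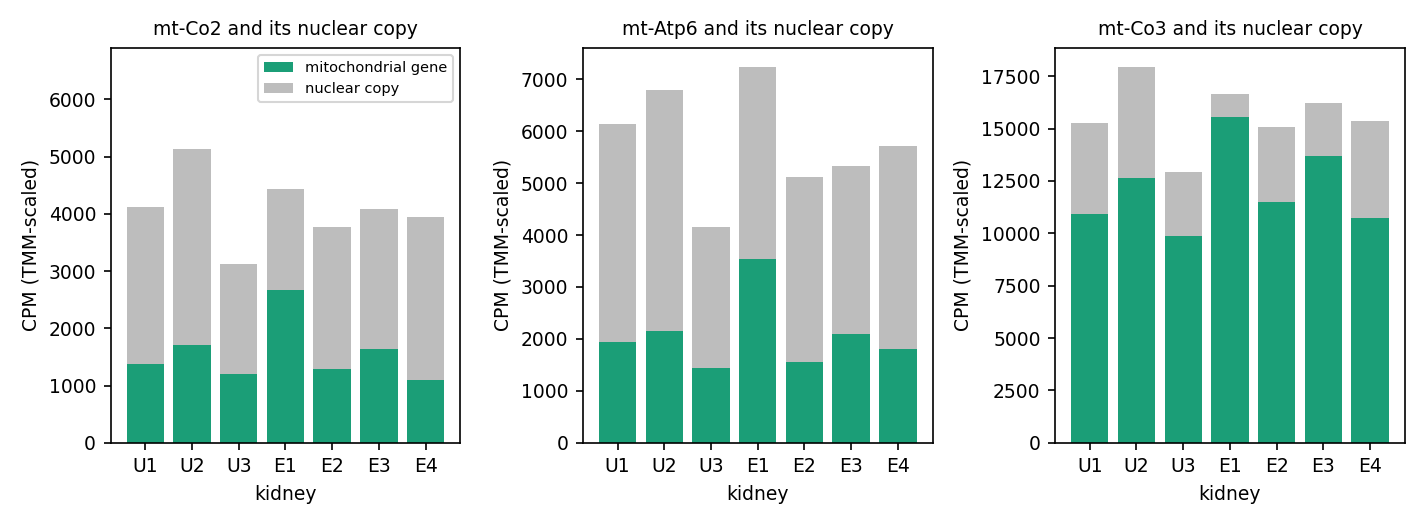
CPM assigned to mt-Co2, mt-Atp6 and mt-Co3 (green) and to the nuclear copy of each (grey, stacked) in untreated kidneys U1 to U3 and ergothioneine-treated kidneys E1 to E4. The green part of mt-Co2 is highest in E1 (2676 CPM), whereas the whole bar is highest in U2 (5138 CPM).

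Adding each copy to its member changed what these 3 genes showed. mt-Co2, the subunit that receives electrons from cytochrome c, read 1383, 1714 and 1209 CPM against 2676, 1292, 1646 and 1105 CPM as deposited, and 4119, 5138 and 3130 CPM against 4435, 3777, 4087 and 3951 CPM with its copy. Its log2 fold change went from 0.23 ± 0.35 to -0.02 ± 0.14. For mt-Atp6, the proton channel subunit of ATP synthase, it went from 0.29 ± 0.34 to 0.04 ± 0.19, and for mt-Co3, a core subunit of complex IV, from 0.21 ± 0.13 to 0.04 ± 0.10. None of the 3 was called by edgeR in either fit, and 7.17% of tested genes were called after the copies were added. With its copy, mt-Co2 spread less among treated kidneys (highest over lowest 1.174, from 2.42 as deposited) and more among untreated kidneys (1.64, from 1.42). With copies, untreated 3 was the lowest kidney for 12 of 12 plus-strand coding genes. The median correlation among their 66 pairs was then 0.905 (0.422 to 0.988). mt-Nd6 kept a log2 fold change of -1.29 in that fit (edgeR adjusted p = 0.0317).

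mt-Atp8, the short second ATP synthase subunit, shares 43 bases with mt-Atp6 (chrM:7927-7969), and both proteins are read from 1 bicistronic mRNA. mt-Nd4l and mt-Nd4 share 7 bases (chrM:10167-10173) and are likewise carried on 1 mRNA. The sequences show how closely the frames are packed, with the shared bases in capitals (GENCODE M21, GRCm38; chrM:7766-7969 and chrM:10114-10173, both plus strand).
mt-Atp8: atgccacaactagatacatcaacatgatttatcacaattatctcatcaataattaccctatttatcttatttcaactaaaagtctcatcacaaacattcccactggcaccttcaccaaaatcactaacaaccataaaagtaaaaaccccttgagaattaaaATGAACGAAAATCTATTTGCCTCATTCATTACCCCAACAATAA
mt-Nd4l, last 60 bases: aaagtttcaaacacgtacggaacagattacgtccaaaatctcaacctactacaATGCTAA
mt-Atp8 read 112, 142 and 60.3 CPM in untreated and 147, 72.3, 81.2 and 83.7 CPM in treated kidneys (log2 fold change -0.13 ± 0.40, edgeR adjusted p = 0.912). Its counts were 3.88% to 6.60% of those of mt-Atp6 as deposited and 1.41% to 2.09% once the nuclear copy of mt-Atp6 was added, and those of mt-Nd4l 6.11% to 7.43% of those of mt-Nd4. These ratios do not compare mRNA levels, because both short genes are about as long as the sequenced fragments or shorter.

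The deposited tables carry that fragment length. Counts divided by TPM give the effective length on which the authors' estimator placed reads, and over the 12 members of at least 500 nt it was shorter than the gene by 279 to 298 nt, depending on the library. mt-Atp8, 204 nt long, was left with an effective length of 4.11 to 6.17 nt, mt-Nd4l (297 nt) with 36.4 to 46.7 nt, mt-Nd3 (348 nt) with 69.6 to 84.2 nt and mt-Nd6 (519 nt) with 222 to 241 nt. In TPM, mt-Atp8 was therefore listed at 9159 to 36533 and stood at 2.53 to 5.44 times mt-Atp6, or at 0.913 to 1.72 times mt-Atp6 with its nuclear copy, although its counts were a small fraction of those of mt-Atp6. Differences between untreated 3 and untreated 1 in mt-Atp8 TPM thus also include a change of effective length from 4.11 to 5.70 nt.

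The 22 tRNA genes, 14 on the plus and 8 on the minus strand, are 59 to 75 nt long and had 0 counts in all 7 libraries. All are shorter than the length subtracted above, so that a count of 0 does not speak to their level in the kidney. Gene sequences are shown for the shortest (mt-Ts2, chrM:11613-11671 plus), the longest (mt-Tl1, chrM:2676-2750 plus) and the minus-strand neighbour of mt-Nd6 (mt-Te, chrM:14071-14139 minus), from GENCODE M21 on GRCm38.
mt-Ts2: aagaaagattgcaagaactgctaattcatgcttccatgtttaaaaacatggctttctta
mt-Tl1: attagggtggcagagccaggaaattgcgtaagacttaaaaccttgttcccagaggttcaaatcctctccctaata
mt-Te: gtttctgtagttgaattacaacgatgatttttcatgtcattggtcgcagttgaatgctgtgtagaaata
mt-Te begins at the base after mt-Nd6 on the genome and precedes it on the light-strand transcript, without a gap. Of the 36 pairs of consecutive members, 9 overlap, 12 abut and 15 leave a gap, of at most 32 nt. mt-Co3, mt-Nd4 and mt-Cytb end without a complete stop codon in the annotation, and their stop is known to be completed by polyadenylation.

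The rRNAs varied widely between kidneys of both groups. mt-Rnr1, the 12S rRNA of the small mitochondrial ribosomal subunit at chrM:70-1024, read 805, 1069 and 582 CPM in untreated and 838, 457, 468 and 861 CPM in treated kidneys. mt-Rnr2, the 16S rRNA of the large subunit at chrM:1094-2675, read 487, 672 and 297 CPM and 494, 173, 214 and 513 CPM. Ergothioneine 2 and 3 were low for both, and ergothioneine 1 and 4 lay within the untreated range. The log2 fold changes were -0.32 ± 0.36 and -0.48 ± 0.53 (edgeR adjusted p = 0.701 for both). Over the 7 libraries mt-Rnr1 and mt-Rnr2 had a correlation of 0.991 with each other. Either rRNA with the 12 plus-strand coding genes had a median of 0.496 (0.0973 to 0.832) as deposited. With nuclear copies added, that median was 0.632 (0.173 to 0.832).

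**Figure D5:**
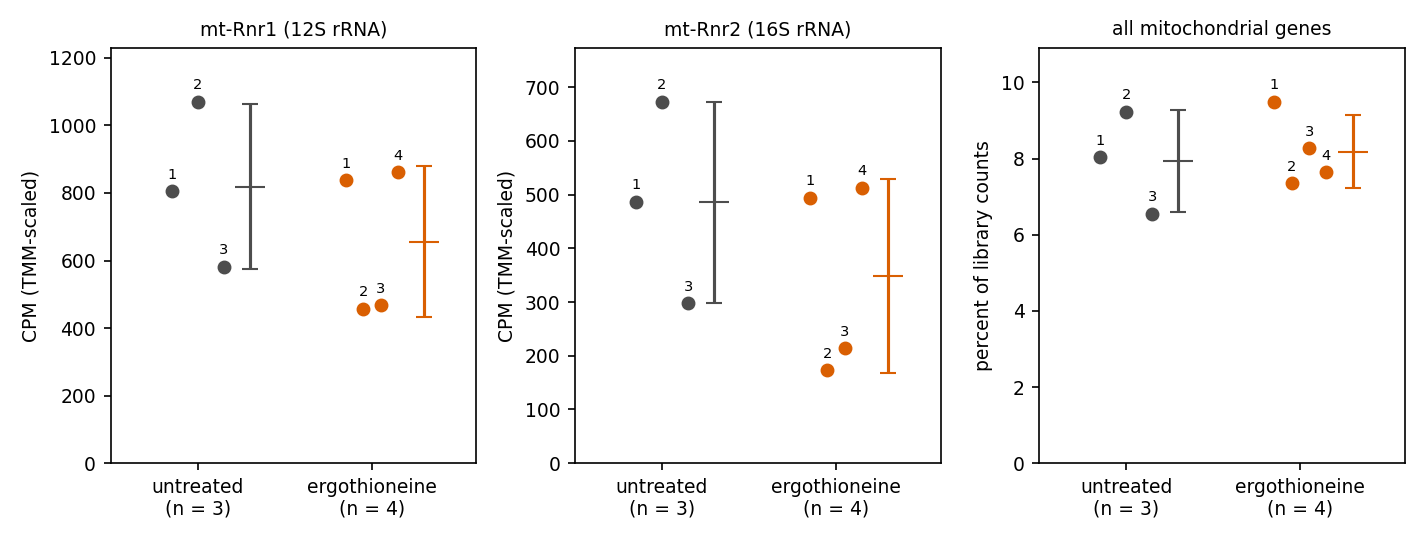
mt-Rnr1 and mt-Rnr2 in CPM and all mitochondrial genes as a percent of library counts (vertical axes from 0) in each numbered kidney, with the group mean and SD as bars. Ergothioneine 2 and 3 are low for both rRNAs (457 and 468 CPM for mt-Rnr1), but not for the share of all mitochondrial genes (7.35% and 8.27%), and the groups overlap in all 3 panels.

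rRNA usually exceeds mRNA in tissue RNA, but here mt-Rnr1 stood at 11.5% to 23.8% of mt-Nd1 per kilobase and mt-Rnr2 at 2.76% to 9.02%. The labels name both a ribosomal RNA removal kit and a stranded mRNA kit, and the part of library preparation in these levels was not tested. mt-Rnr2 was 0.228 to 0.380 times mt-Rnr1 per kilobase in every library.

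Levels between members were compared per kilobase of annotated length and per effective length, with nuclear copies added and only for the 12 members of at least 500 nt. Relative to mt-Nd1 at 100%, untreated kidneys had mt-Co1 at 618% ± 59.2 (SD, n = 3), mt-Co3 at 504% ± 45.2, mt-Atp6 at 211% ± 6.28, mt-Cytb at 176% ± 9.99, mt-Co2 at 153% ± 6.999 and mt-Nd4 at 126% ± 3.36. Below mt-Nd1 came mt-Nd5 at 58.1% ± 3.601, mt-Nd2 at 51.2% ± 2.79, mt-Rnr1 at 21.5% ± 1.93, mt-Nd6 at 11.9% ± 0.256 and mt-Rnr2 at 7.59% ± 1.36. The first 10 members stood in this order in all 7 libraries by annotated length.

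By effective length, which is shorter for every gene and weighs most on the shorter ones, several neighbours changed places. mt-Co3 (558% ± 48.0 of mt-Nd1; SD, n = 3 untreated) then stood above mt-Co1 (529% ± 53.5), and mt-Co2 (186% ± 8.85) above mt-Cytb (164% ± 9.72), in all 7 libraries. mt-Nd2 and mt-Nd5 (49.5% ± 2.65 and 48.0% ± 2.89) and mt-Nd4 and mt-Nd1 did not keep 1 order across libraries. On both scales mt-Co1 and mt-Co3 led, followed by mt-Atp6, and mt-Nd6 and the rRNAs were the lowest 3. mt-Nd6 stood at 18.9% ± 0.411 of mt-Nd1 in untreated and 7.02% ± 1.92 (SD, n = 4) in treated kidneys by effective length, and at 4.54% ± 1.24 in treated kidneys by annotated length. mt-Nd6 was above mt-Rnr2 in every untreated kidney and in ergothioneine 2 and 3, and below it in ergothioneine 1 on both scales. In ergothioneine 4 the order depended on the scale, with 5.70% against 8.16% by annotated length and 8.92% against 6.97% by effective length.

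TPM values gave another picture of the same members. Mitochondrial genes took 20.5%, 21.9% and 9.69% of TPM in untreated kidneys and 16.9%, 10.8%, 12.6% and 11.4% in treated kidneys. Short non-coding nuclear RNAs took 12.1%, 16.1% and 48.7% of TPM and 37.5%, 47.6%, 43.3% and 48.5% in the same libraries. With those RNAs left out of the total, mitochondrial genes took 18.9% to 26.1% and 20.6% to 27.0%, and the groups overlapped. With limma on log2(TPM + 1), all tested genes had a median of -0.28 and the members a median of -0.40, with 0 of 15 above 0. mt-Nd6 was listed at 1469, 1610.0 and 687 TPM in untreated and 300.1, 331, 413 and 417 TPM in treated kidneys, and was the 1 member called, as lower, beside 2.34% of all genes tested on that scale.

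Within each range of library index numbers the plus-strand coding genes were also set side by side. In the higher range all 12 were higher in the 1 treated kidney than in the mean of 2 untreated kidneys, and in the lower range all 12 were higher in the mean of 3 treated kidneys than in the 1 untreated kidney. Both comparisons rest on a single library, ergothioneine 1 and untreated 3, which are the highest and lowest for most of these genes. With the index range as a block, edgeR called mt-Nd1 (log2 fold change 0.34, adjusted p = 0.0452) and mt-Atp6 (0.55, adjusted p = 0.0232) higher, before nuclear copies were added, where 2.94% of all tested genes were called higher. The 2 rRNAs were lower in the treated kidney of the higher range and close to the untreated kidney in the lower range, where mt-Rnr1 averaged 595 CPM against 582 CPM and mt-Rnr2 299.7 CPM against 297 CPM.

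Few nuclear genes that make, process and use mitochondrial RNA passed the test. Of 129 tested genes in 6 lists, edgeR called 2 higher and 1 lower, beside the 7.16% called among all tested genes. Among 18 regulators of mitochondrial transcription (median log2 fold change -0.02) 1 was lower: Pprc1, a coactivator related to PGC-1, fell from 24.8 ± 1.47 CPM (SD, n = 3) to 19.7 ± 1.77 CPM (SD, n = 4), a log2 fold change of -0.33 ± 0.09 (edgeR adjusted p = 0.0306). The polymerase gene Polrmt (0.08 ± 0.07) and the initiation factor gene Tfb2m (-0.05 ± 0.07) overlapped between the groups. Tfam, which packages and helps to transcribe mitochondrial DNA, was 38.9, 40.3 and 40.1 CPM against 36.1, 35.5, 38.5 and 37.2 CPM, without overlap but not called (-0.11 ± 0.07, edgeR adjusted p = 0.364). Ppargc1a, the coactivator PGC-1α, stood at 0.18 ± 0.07 (adjusted p = 0.154) and was called only without untreated 2 (0.26, adjusted p = 0.0283).

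Of 16 genes of mitochondrial DNA replication and the nucleoid (median 0.04), 1 was higher: Primpol, a primase and polymerase that restarts stalled replication, rose from 6.44 ± 0.224 CPM to 9.12 ± 1.20 CPM (0.50 ± 0.13, edgeR adjusted p = 0.0301). Of 22 other nuclear-encoded mitochondrial proteins (median 0.03), 1 was higher: Idh3a, a subunit of the Krebs cycle isocitrate dehydrogenase, rose from 132 ± 1.91 CPM to 152 ± 3.44 CPM (0.20 ± 0.05, edgeR adjusted p = 0.0237). These calls did not hold without single kidneys, since Primpol lost its call in 6 of 7 such fits (adjusted p up to 0.106), and Pprc1 and Idh3a each in 5 of 7 (up to 0.0954 and 0.0877). None was called among 26 genes of RNA processing and decay (median -0.08), 26 of tRNA and rRNA modification (0.04) or 22 aminoacyl-tRNA synthetase genes (-0.03).

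The processing genes closest to the maturation of these transcripts did not pass the test. Elac2, which cuts tRNA 3′ ends, had a log2 fold change of 0.02 ± 0.09, and the RNase P subunit genes Trmt10c and Hsd17b10 had -0.12 ± 0.10 and 0.10 ± 0.07. Lrpprc and Slirp encode the complex that stabilises mitochondrial mRNAs. Lrpprc was 150.1, 142 and 151 CPM against 142, 134, 145 and 137 CPM (-0.08 ± 0.06, edgeR adjusted p = 0.452). Slirp was 17.3, 17.3 and 17.4 CPM against 20.04, 20.7, 20.04 and 17.2 CPM (0.17 ± 0.09, adjusted p = 0.313), with 3 of 4 treated kidneys above the untreated ones and ergothioneine 4 below them.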

How the data were processed

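RNA was measured in 7 whole-kidney libraries (3 untreated, 4 ergothioneine). The authors deposited gene-level expected counts and TPM; the submitters' processing notes name STAR 2.7.10a, RSEM 1.3.1, Salmon 1.10.1 and the build GRCm38, without roles, and neither the strand setting nor the annotation version is stated in those notes. Gene IDs were joined to GENCODE M21 (45143 of 45706 genes matched). Expected counts were rounded and tested with edgeR 4.0.16 (filterByExpr, TMM, robust quasi-likelihood, Benjamini-Hochberg over 15399 genes, threshold 0.05). CPM are TMM-scaled. DESeq2 1.42.0 and limma 3.58.1 on log2(TPM + 1) or log2(TPM + 0.1) served as alternatives, with other scalings, filters, left-out libraries and blocks. The edgeR step was tested on data simulated with the spread typical of genes at each level. The members spread more widely than other abundant genes, so that this test does not cover them. Nuclear copies were genes outside chromosome M with at least 50% of their 31-base words in mitochondrial transcripts, since no genome of the build was used here. Replicates within groups differed by more than sampling noise (chi-square per degree of freedom 7.96 to 27.5). The titles number the males of each group; where nothing else says that libraries are separate animals, p-values measure the spread between these samples.

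Members and lists were chosen with earlier results of these data known. Every mitochondrial gene was accounted for. Of the 6 nuclear lists, 9 genes were always named, with up to 4 called members per list and direction, smallest adjusted p first. Cell type lists numbered 8.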

Additional observations from a re-analysis of the deposited data

Results flagged for a closer look

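In the ergothioneine group, ergothioneine 1 lay far from the other 3 kidneys for mt-Atp8, at 147 CPM against 72.3 to 83.7 CPM. Its gap to the nearest kidney was 0.847 of the range of the group, above the 95% critical value of Dixon's test for a group of 4. The value of mt-Atp8 was the same after nuclear copies were added, at 147 CPM. Of 36 measures of the members tested in this way, these 2 passed, and chance alone passes about 5% of separate tests. No annotated nuclear gene was matched to mt-Atp8 as a copy, so no counts were added to it. Both are therefore the same measurement, and the 36 measures overlap.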

How the results depend on the processing

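Scaling by other factors or by library totals, other filters on low counts, DESeq2 and leaving mitochondrial or short non-coding genes out of the library size kept the direction and the call of all 15 members. On TPM, the log2 fold changes with a pseudocount of 1 (and, where it differs, 0.1) turned negative: mt-Nd1 -0.23, mt-Co1 -0.35, mt-Co2 -0.24, mt-Atp6 -0.16, mt-Co3 -0.19, mt-Nd3 -0.28, mt-Cytb -0.33, mt-Nd4l -0.42, Polrmt -0.33 and -0.34, Slirp -0.18 and -0.19, Elac2 -0.30 and -0.33, Hsd17b10 -0.27 and -0.28, Ppargc1a -0.21 and -0.22 and Idh3a -0.16; 18 and 23 genes of the whole table were then higher, 430 and 433 lower and 0 of the listed nuclear genes in either direction, and the mean share of mitochondrial genes in TPM was 17.4% (untreated) and 12.9% (ergothioneine). The shift of the median of all genes in TPM accompanies this, and the cause was not tested. With nuclear copies added, chosen after seeing the data, mt-Co2 turned to -0.023 and the mean shares rose by construction to 9.11% (untreated) and 9.17% (ergothioneine).

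With the library index range as a block, the values that turned were mt-Nd2 0.17, mt-Atp8 0.30, mt-Nd4 0.19 and mt-Nd5 0.15; 2 members were higher, 0 lower, and 1 listed nuclear gene was higher. Without untreated kidneys 1 and 2, also chosen after seeing the data and with the lone untreated kidney assumed to vary like the treated ones, they were mt-Rnr1 0.18, mt-Rnr2 0.23, mt-Nd2 0.41, mt-Atp8 0.67, mt-Nd4 0.42, mt-Nd5 0.38, Tfb2m 0.017, Elac2 -0.066 and Trmt10c 0.082, with 249 genes higher and 307 lower over the whole table, 0 members lower and 0 listed nuclear genes called. With the replicate block (replicate number, kidneys 1 to 3 of each group), mt-Nd6 stood at -1.38 (adjusted p = 0.217), 394 genes were higher and 412 lower, and 0 members or listed nuclear genes were called. The numbers do not pair the samples: deviations of same-numbered kidneys correlated at 0.027, -0.068 and 0.0027.

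Leaving out each kidney in turn gave 350 to 514 genes higher and 337 to 589 lower, 0 to 1 members higher, 0 to 1 lower, 0 to 2 listed nuclear genes higher and 0 to 1 lower. The lowest counts came without ergothioneine 1 (355 higher, 337 lower) and ergothioneine 2 (350 higher, 360 lower). Ranges that crossed 0 were mt-Nd1 -0.032 to 0.28, mt-Nd2 -0.28 to 0.057, mt-Co1 -0.083 to 0.12, mt-Co2 -0.090 to 0.38, mt-Atp8 -0.41 to 0.15, mt-Atp6 -0.016 to 0.43, mt-Nd4 -0.23 to 0.13, mt-Nd5 -0.28 to 0.022, mt-Cytb -0.098 to 0.16, mt-Nd4l -0.044 to 0.27 and Elac2 -0.029 to 0.067. The group sizes of 3 and 4 and the 0 counts of the 22 tRNA genes limit what these libraries show.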
